A study of Neurospora crassa with 12 samples.

Results

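Of the 9730 genes in the count table, 6 are the subject here: 2 cellobiose dehydrogenase genes, cdh-1 (NCU00206) and cdh-2 (NCU05923), and 4 β-glucosidase genes, gh1-1 (NCU00130) of glycoside hydrolase family GH1 and gh3-3 (NCU08755), gh3-4 (NCU04952) and gh3-6 (NCU07487) of family GH3. They were named by locus and enzyme class, but with earlier results of these data known, and they do not include every β-glucosidase gene. All 6 were found in the table and had enough counts to be tested. In brief, cdh-1, gh1-1, gh3-4 and gh3-6 were lower in Δclr-5 than in WT on both amino acids. No member passed the test on Avicel with ordinary nitrogen, though all 6 fold changes were below 0 there. The strain effects on leucine were not shown to differ from those on Avicel. In addition, cdh-2 had few counts throughout, and gh3-3, unlike the other 5, had its highest levels on histidine.

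The libraries came from mycelium of Neurospora crassa, a filamentous ascomycete that grows on plant cell walls. The Δclr-5 strain, a single deletion strain from the stock centre's collection, lacks NCU05383, a Zn2Cys6 transcription factor gene named clr-5 in the study and col-24 in the reference, and the WT strain was FGSC 2489. Precultured mycelium of each strain was moved to 2% Avicel, a microcrystalline cellulose, either in Vogel's salt free of nitrogen with 50 mM histidine, in the same salt with 50 mM leucine, or in ordinary Vogel's salt, which carries its own nitrogen and is called Avicel below. The sample labels give 8 h of induction, and the study's methods give a shorter time. Each of the 6 groups had 2 independent cultures, so n = 2 for every mean ± SD, and every group shared the cellulose.

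Cellulose is cut outside the hypha by cellulases, which release mainly cellobiose, a disaccharide of glucose. β-Glucosidases split cellobiose and longer cellodextrins into glucose, either outside the cell or, after uptake by cellodextrin transporters, inside it. Cellobiose dehydrogenase is a secreted flavocytochrome that oxidises cellobiose to its lactone and passes the electrons on to copper-dependent lytic polysaccharide monooxygenases (LPMOs), which cleave cellulose by oxidation. In N. crassa, the enzymes of both routes are made when mycelium meets cellulose, so the level of these transcripts is a usual readout of the cellulolytic state.

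The 6 genes lay on 4 chromosomes. In the NC12 reference assembly, cdh-1 lies on chromosome III from 3004156 to 3008108, gh1-1 on chromosome III from 2730966 to 2733380 and gh3-3 on chromosome III from 5254966 to 5258478. Elsewhere, cdh-2 lies on chromosome VI from 3461038 to 3464101, gh3-4 on chromosome IV from 846341 to 849048, and gh3-6 on chromosome I from 448859 to 451692. No member overlapped another annotated gene, and the closest neighbour was NCU15403, 179 bp from cdh-2. The gene spans, introns included, ran from 2415 bp for gh1-1 to 3953 bp for cdh-1, and these spans were used where levels of different genes are compared per kilobase.

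Total counts ranged from 16797962 to 20381308 per library, with a median of 18400977. Levels are given as CPM, counts scaled to an equal total per library, while fold changes came from edgeR's quasi-likelihood fit on counts scaled by TMM, which corrects for the few very abundant transcripts that fill the Avicel libraries. The TMM factors ran from 0.780 in a WT library on Avicel to 1.19 in a Δclr-5 library on histidine, and so a log2 fold change can differ from the plain ratio of CPM. The check of the deletion came out as labelled, since clr-5 had 27 to 63 counts in the 6 Δclr-5 libraries against 301 to 1035 counts in the 6 WT libraries. The strains differed in more than clr-5, as matA-1 (NCU01958), a mating-type gene, had 0 counts in all 6 Δclr-5 libraries, which allows up to 3 counts in each, against 125 to 2049 counts in the WT libraries, so the deletion and other differences between the strains cannot be told apart. Conidiation was the other cell state looked for, and the summed level of its 7 marker genes was 83509 and 70334 CPM in Δclr-5 on histidine against 754 and 1089 CPM in WT, 1110.0 and 1679 CPM in Δclr-5 on leucine against 542 and 508 CPM in WT, and 3268 and 35613 CPM in Δclr-5 on Avicel against 177 and 210.2 CPM in WT. A single gene, eas (NCU08457), which encodes a hydrophobin, held 99.4% of this sum in both Δclr-5 libraries on histidine and 95.5% in Δclr-5 culture 2 on Avicel, and without it the sum was 518 and 454 CPM in Δclr-5 on histidine against 117 and 129 CPM in WT, 859 and 1173 CPM in Δclr-5 on leucine against 542 and 507 CPM in WT, and 395 and 1598 CPM in Δclr-5 on Avicel against 89.0 and 87.4 CPM in WT. None of these 7 markers was at 0 in any library, 4 of 7 were called higher in Δclr-5 on histidine, 2 of 7 on leucine and 7 of 7 on Avicel, where 8.27%, 8.77% and 11.8% of all genes tested were called higher, and their part in the results below was not tested. In bulk RNA, fewer cells of a kind and less RNA per cell cannot be told apart.

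The extracellular electron donor gene cdh-1 had the widest range of the 6 genes. Its level was 9.97 and 11.6 CPM in Δclr-5 on histidine, against 499 and 53.8 CPM in WT on histidine. On leucine, cdh-1 was at 434 and 247 CPM in Δclr-5, against 3267 and 3524 CPM in WT. On Avicel, it was at 9512 and 3689 CPM in Δclr-5, against 14759 and 14019 CPM in WT. The strains did not overlap in any medium, and both cultures of Δclr-5 lay below both cultures of WT each time. Between the group means of the lowest and the highest group, Δclr-5 on histidine and WT on Avicel, the level differed 1335-fold. In WT on Avicel, cdh-1 was the gene with the fifth highest count in both libraries (rank 5 of 9730), while in Δclr-5 on histidine it ranked 6571 and 6337. The cultures themselves disagreed in places, by 9.26-fold between the cultures of WT on histidine and by 2.58-fold between those of Δclr-5 on Avicel.

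The paralogue cdh-2 was low in every library, with 139 to 401 counts. Its level was 7.78 and 7.92 CPM in Δclr-5 on histidine, against 10.7 and 8.83 CPM in WT. On leucine, cdh-2 was at 19.3 and 21.7 CPM in Δclr-5, against 11.5 and 11.3 CPM in WT. On Avicel, it was at 13.5 and 12.1 CPM in Δclr-5, against 14.03 and 14.02 CPM in WT. Only on leucine were both Δclr-5 cultures above both WT cultures, and on the other media they were below. The highest and lowest group means of cdh-2, Δclr-5 on leucine and Δclr-5 on histidine, differed 2.61-fold. The ratio of cdh-1 to cdh-2 counts therefore followed cdh-1, at 1.28 and 1.46 in Δclr-5 on histidine against 46.7 and 6.10 in WT, at 22.4 and 11.4 in Δclr-5 on leucine against 284 and 313 in WT, and at 707 and 306 in Δclr-5 on Avicel against 1052 and 999.6 in WT.

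The intracellular β-glucosidase gene gh1-1, whose product hydrolyses cellodextrins that the cell has taken up, stayed abundant in every WT group. On histidine, gh1-1 was at 475 and 688 CPM in Δclr-5, against 6160.3 and 3287 CPM in WT. On leucine, it was at 1129 and 927 CPM in Δclr-5, against 2496 and 2656 CPM in WT. On Avicel, it was at 5699.7 and 4639.8 CPM in Δclr-5, against 9246 and 8661 CPM in WT. The strains separated in all 3 media, with Δclr-5 lower. By CPM, both WT cultures had more gh1-1 on histidine than on leucine, and both Δclr-5 cultures had less. Per kilobase, gh1-1 averaged 241 ± 62.2 CPM in Δclr-5 on histidine and 1956 ± 841 CPM in WT on histidine.

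Among the GH3 genes, gh3-4 encodes a major secreted β-glucosidase. On histidine, its level was 13.9 and 16.5 CPM in Δclr-5, against 70.3 and 32.2 CPM in WT. On leucine, it was 107 and 66.2 CPM in Δclr-5, against 134 and 198 CPM in WT. On Avicel, it was 1109.6 and 1036 CPM in Δclr-5, against 1109.9 and 1129 CPM in WT. The strains stood apart on histidine and leucine, while on Avicel the higher Δclr-5 culture and the lower WT culture were nearly equal.

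A further β-glucosidase gene of the same family, gh3-6, moved much like gh3-4 but from a higher level. On histidine, gh3-6 was at 14.2 and 20.2 CPM in Δclr-5, against 359 and 77.1 CPM in WT. On leucine, it was at 99.4 and 84.7 CPM in Δclr-5, against 342 and 337 CPM in WT. On Avicel, it was at 2583 and 1299.9 CPM in Δclr-5, against 2563 and 2688 CPM in WT. The strains overlapped on Avicel, where Δclr-5 culture 1 was inside the WT range, and did not overlap on either amino acid. The WT cultures on histidine differed 4.66-fold and the Δclr-5 cultures on Avicel 1.99-fold, the same groups in which the cultures disagreed most for cdh-1.

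The remaining β-glucosidase gene, gh3-3, had the narrowest range of the 4 and its highest levels on histidine. On histidine, gh3-3 was at 1162 and 1304 CPM in Δclr-5, against 1812 and 1458 CPM in WT. On leucine, it was at 582 and 532 CPM in Δclr-5, against 542 and 491 CPM in WT. On Avicel, it was at 436 and 757 CPM in Δclr-5, against 748 and 596 CPM in WT. The strains overlapped on leucine and on Avicel, and on histidine both Δclr-5 cultures were below both WT cultures. The highest and lowest group means, WT on histidine and WT on leucine, differed 3.17-fold.

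**Figure D1:**
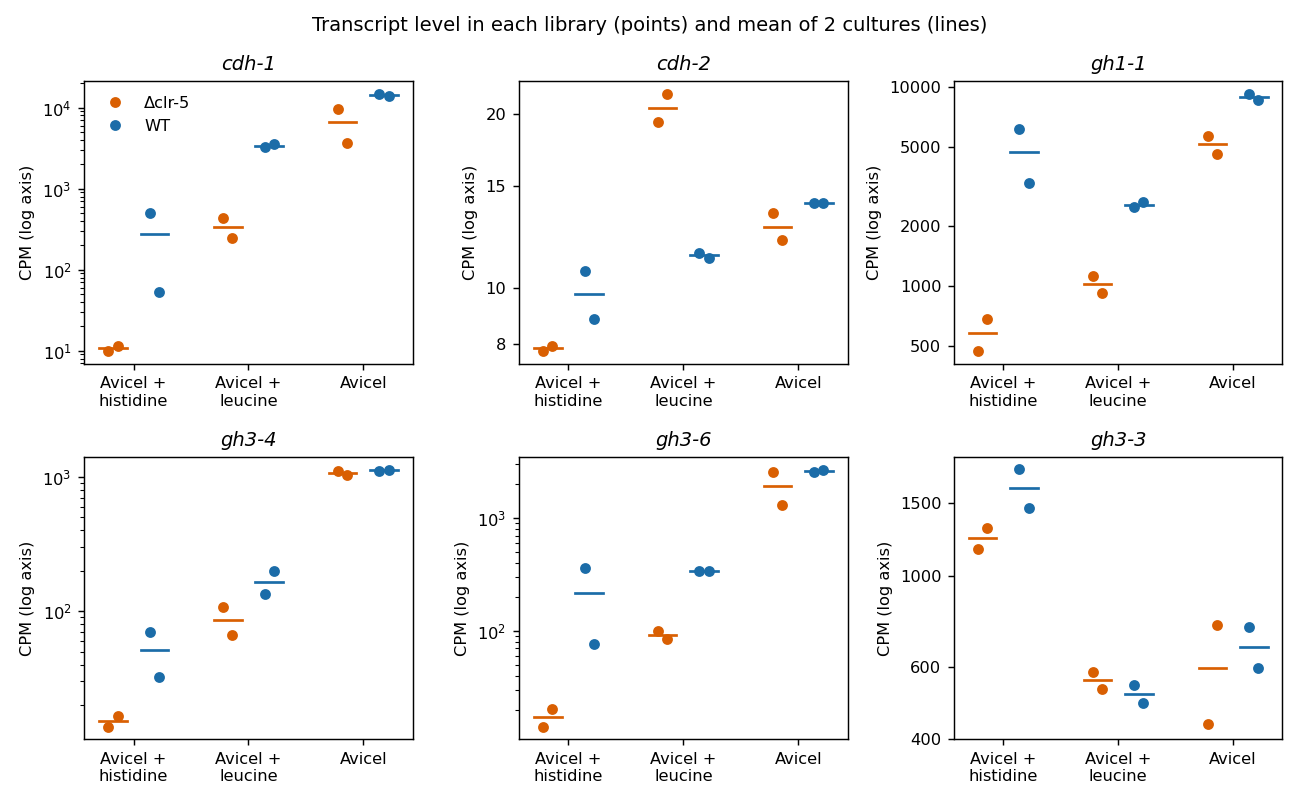
Transcript level of each of the 6 genes in CPM (log axis, 1 panel a gene) on Avicel with histidine, with leucine or with ordinary nitrogen. Points are the 2 cultures of Δclr-5 (orange, left of each pair) and WT (blue), lines their means; by their means, cdh-1, gh3-4 and gh3-6 are lowest on histidine and highest on Avicel in both strains, and gh3-3 is highest on histidine.

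Ranked by mean CPM, cdh-1, gh1-1, gh3-4 and gh3-6 all had WT on Avicel first, Δclr-5 on Avicel second and Δclr-5 on histidine last. For cdh-1, all neighbours in this order were separate except Δclr-5 on leucine (340.2 ± 132 CPM) and WT on histidine (276 ± 314 CPM), whose cultures overlapped. For gh3-4, the overlapping neighbours were likewise Δclr-5 on leucine (86.5 ± 28.7 CPM) and WT on histidine (51.3 ± 27.0 CPM). For gh1-1, the overlap was between Δclr-5 on Avicel (5169.8 ± 749 CPM) and WT on histidine (4724 ± 2032 CPM). For gh3-6, WT on Avicel overlapped Δclr-5 on Avicel, and WT on histidine (218 ± 199.6 CPM) overlapped both WT on leucine (339.8 ± 3.75 CPM) and Δclr-5 on leucine (92.0 ± 10.4 CPM). For gh3-3, WT on histidine (1635 ± 250.4 CPM) and Δclr-5 on histidine (1233 ± 101 CPM) were separate from each other and from the rest, and the other 4 groups overlapped their neighbours. For cdh-2, all 6 groups were separate, from Δclr-5 on leucine (20.5 ± 1.64 CPM) to Δclr-5 on histidine (7.85 ± 0.106 CPM), although with 2 cultures a group separation is a weak criterion. Several of these separations depended on the scaling. With CPM on TMM library sizes, Δclr-5 on Avicel overlapped WT on leucine both for cdh-1 (10904 and 3749 against 3591 and 3978) and for cdh-2 (15.4 and 12.3 against 12.6 and 12.7), and WT on histidine overlapped WT on leucine for gh1-1. Conversely, WT on histidine no longer overlapped Δclr-5 on leucine for gh3-4 or WT on leucine for gh3-6, nor did Δclr-5 on Avicel overlap WT on Avicel for gh3-6.

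The strains were first compared on histidine, to see how these transcripts differ between Δclr-5 and WT when a single amino acid is the nitrogen source. Here 4 of the 6 genes were lower in Δclr-5 and none was higher, where 12.8% of all genes tested were called lower and 8.27% higher. The decrease was largest for cdh-1, by 4.68 on the log2 scale (SE 0.95, adjusted p = 0.00681), followed by gh3-6, which fell by 3.67 (SE 0.66, adjusted p = 0.00355). The intracellular gh1-1 fell by 3.03 (SE 0.35, adjusted p = 0.000159), the smallest p of the 6, and gh3-4 fell by 1.76 (SE 0.38, adjusted p = 0.00816). As a share of WT, the mean CPM in Δclr-5 was 3.90% for cdh-1, 7.90% for gh3-6, 12.3% for gh1-1 and 29.7% for gh3-4. The fold changes of gh3-3 (-0.41, adjusted p = 0.214) and cdh-2 (-0.32, adjusted p = 0.235) did not pass the test, which does not show that they were equal between the strains. Culture 1 of WT on histidine carried much of the size: without it cdh-1 was at -2.33, gh3-6 at -2.17, gh1-1 at -2.51 and gh3-4 at -1.09, the last no longer called. The call of cdh-1 was also lost without either Δclr-5 culture on histidine, and that of gh3-4 without Δclr-5 culture 1, while gh1-1 was called whichever library was left out. Such a fit leaves 1 culture in a group and called fewer of all genes too, so these losses do not single out the members. With only the libraries compared, cdh-1 (adjusted p = 0.169) and gh3-6 (adjusted p = 0.138) were not called.

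On leucine, the same 4 genes were lower in Δclr-5 and cdh-2 was higher, where 10.7% of all genes tested were called lower and 8.77% higher. The decrease was again largest for cdh-1, which fell by 3.57 (SE 0.89, adjusted p = 0.0208), and gh3-6 fell by 2.14 (SE 0.61, adjusted p = 0.0353). Next, gh1-1 fell by 1.58 (SE 0.33, adjusted p = 0.00793) and gh3-4 by 1.19 (SE 0.36, adjusted p = 0.0434). The mean CPM in Δclr-5 was 10.02% of that in WT for cdh-1, 27.1% for gh3-6, 39.9% for gh1-1 and 52.1% for gh3-4. The weakly expressed cdh-2 rose by 0.59 (SE 0.17, adjusted p = 0.0369). Its plain ratio of mean CPM, without TMM scaling, was larger, at 1.80. The fold change of gh3-3 was -0.15 (adjusted p = 0.680), and it turned to 0.11 when counts were scaled by library size alone. Without any single one of the 4 leucine libraries, cdh-1, cdh-2 and gh3-6 were no longer called. Likewise gh1-1 was not called without culture 2 of either strain, nor gh3-4 without Δclr-5 culture 2 or either WT culture. Such a fit leaves 1 culture in a group and called fewer of all genes too, so these losses do not single out the members. Each gene kept its direction. The fold change ran from -4.08 to -3.19 for cdh-1, from 0.54 to 0.63 for cdh-2 and from -2.31 to -1.99 for gh3-6. It ran from -1.78 to -1.41 for gh1-1 and from -1.63 to -0.86 for gh3-4. The call of gh3-4 was also lost by library size alone (-0.94, adjusted p = 0.065) and with only the libraries compared (adjusted p = 0.0947). Without scaling factors, 25.5% of all calls were decreases, against 55.0% with TMM.

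On Avicel with ordinary nitrogen, 0 of the 6 genes were called in either direction by edgeR, where 8.37% of all genes tested were called lower and 11.8% higher. All 6 fold changes were nonetheless below 0, at -1.29 for cdh-1 (SE 0.82, adjusted p = 0.289), -0.99 for gh1-1 (SE 0.32, adjusted p = 0.0516), -0.62 for gh3-6 (adjusted p = 0.492), -0.40 for gh3-3 (adjusted p = 0.228), -0.34 for cdh-2 (adjusted p = 0.191) and -0.27 for gh3-4 (adjusted p = 0.634). DESeq2 called 1 of the 6 lower, gh1-1 (adjusted p = 0.00641), with 9.32% of all genes called lower. Here the 2 mutant cultures were far apart, and the values moved with them: cdh-1 was at -2.26 without Δclr-5 culture 1 and at -0.72 without Δclr-5 culture 2, and gh3-6 at -1.31 and -0.14. Without Δclr-5 culture 1, gh1-1 was called lower (adjusted p = 0.0172), and without Δclr-5 culture 2, gh3-3 was called lower (-0.74, adjusted p = 0.0293). Culture 2, with the lower cdh-1 and gh3-6, is also the one with 35613 CPM of the conidiation markers, against 3268 CPM in culture 1. Scaling by library size alone moved the median of all genes by 0.21 on the log2 scale here and left 19.1% of all calls as decreases, against 41.6% with TMM.

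**Figure D2:**
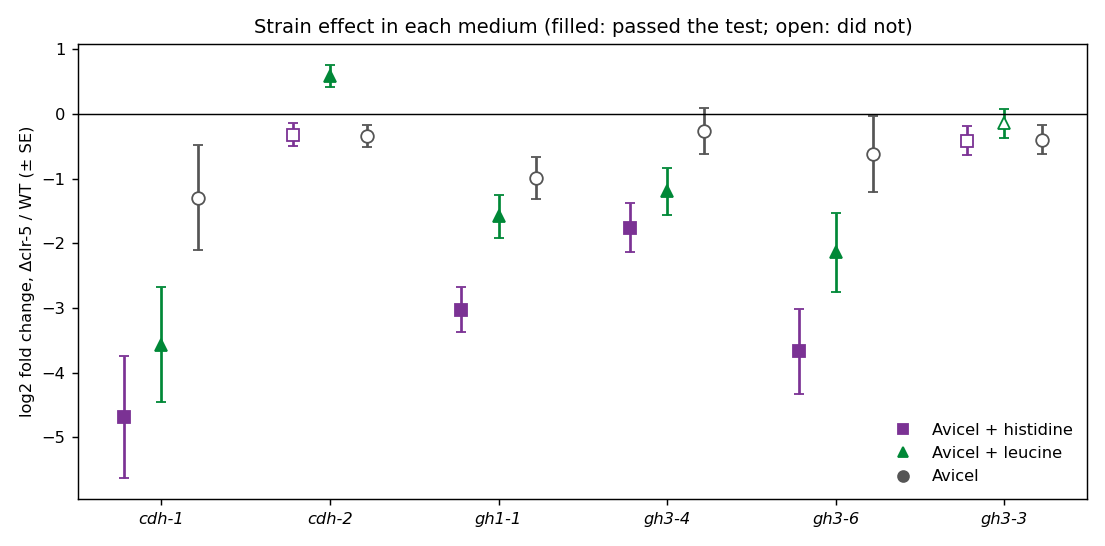
Log2 fold change of Δclr-5 over WT (± SE from edgeR's quasi-likelihood fit) for each of the 6 genes on histidine (squares), leucine (triangles) and Avicel (circles), with filled symbols for those that passed the test. The filled symbols are cdh-1, gh1-1, gh3-4 and gh3-6 below 0 on both amino acids and cdh-2 above 0 on leucine.

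Whether the strain effect differed between media was tested directly. The effect on histidine minus that on Avicel was below 0 for gh1-1 (-2.04, SE 0.46, adjusted p = 0.0157) and for gh3-6 (-3.05, SE 0.85, adjusted p = 0.0416), 2 of 6 genes, where 9.03% of all genes tested were called in this direction and 5.32% in the other. The differences of cdh-1 (-3.39, SE 1.18, adjusted p = 0.0868) and gh3-4 (-1.49, SE 0.52, adjusted p = 0.0824) did not pass, and those of cdh-2 (0.02) and gh3-3 (-0.02) were close to 0. For leucine against Avicel, 0 of the 6 differences were called by edgeR, where 3.69% of all genes were called lower and 1.85% higher. DESeq2 called 1, cdh-2, with 3.74% of all genes called higher. With edgeR, the difference of cdh-2 was 0.93 (SE 0.25, adjusted p = 0.0552) and that of cdh-1 was -2.27 (SE 1.15, adjusted p = 0.273). Hence the decreases on leucine, though called, were not shown to exceed those on Avicel. Between histidine and leucine, the difference was called for cdh-2 alone (-0.91, SE 0.25, adjusted p = 0.0415), with 6.54% of all genes called in this direction and 4.88% in the other, and that of gh1-1 was -1.45 (adjusted p = 0.069). None of these 3 calls held throughout: gh1-1 was lost without either WT culture on Avicel or Δclr-5 culture 1 on histidine (adjusted p up to 0.0841), gh3-6 without any of the 8 libraries compared except WT culture 2 on histidine (adjusted p up to 0.154), and cdh-2 without any of the 8 libraries compared (adjusted p up to 0.147).

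The nitrogen source was then compared within each strain. In WT, histidine against Avicel lowered 5 of the 6 genes and raised gh3-3, where 24.4% of all genes tested were called lower and 27.7% higher. The largest decreases were those of cdh-1, which fell by 6.26 (SE 1.01, adjusted p = 0.000499), gh3-4 by 5.01 (SE 0.42, adjusted p = 5.26e-06) and gh3-6 by 4.15 (SE 0.66, adjusted p = 0.000473). In this comparison gh1-1 fell by 1.48 (SE 0.33, adjusted p = 0.00272) and cdh-2 by 1.08 (SE 0.18, adjusted p = 0.000381), whereas gh3-3 rose by 0.73 (SE 0.22, adjusted p = 0.0165). In mean CPM, WT on histidine held 1.92% of the cdh-1 level of WT on Avicel, but 52.8% of its gh1-1 level and 243% of its gh3-3 level. Leaving out WT culture 1 on histidine took cdh-1 to -8.61 and gh3-6 to -5.65, and without it or without WT culture 2 on Avicel the rise of gh3-3 was not called (adjusted p = 0.0964 and 0.117). Scaling by library size alone took the median of all genes to 0.63, against 0.08 with TMM. It left 22% of calls as decreases, against 46.8% with TMM, and the directions of all 6 genes held under it.

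In Δclr-5, the same comparison gave the same 5 decreases and the same increase, where 27.6% of all genes tested were called lower and 27.2% higher. Here cdh-1 fell by 9.65 (SE 1.17, adjusted p = 7.6e-05), gh3-6 fell by 7.20 (SE 0.77, adjusted p = 3.24e-05) and gh3-4 fell by 6.50 (SE 0.46, adjusted p = 1.42e-06). The decrease of gh1-1 was 3.52 (SE 0.36, adjusted p = 1.11e-05) and that of cdh-2 was 1.06 (SE 0.18, adjusted p = 0.000447), while gh3-3 rose by 0.71 (SE 0.22, adjusted p = 0.0176). In mean CPM, Δclr-5 on histidine kept 0.163% of its own cdh-1 level on Avicel, 0.887% of its gh3-6 level, 1.42% of its gh3-4 level and 11.3% of its gh1-1 level. The rise of gh3-3 was not called without Δclr-5 culture 1 on Avicel (0.44, adjusted p = 0.0901) or without Δclr-5 culture 2 on histidine (adjusted p = 0.099). Decreases were 50.4% of all calls with TMM and 32.6% by library size alone.

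Leucine against Avicel lowered 3 of the 6 genes in WT and raised none, where 19.6% of all genes tested were called lower and 22.2% higher. These were gh3-6, which fell by 3.12 (SE 0.63, adjusted p = 0.00316), gh3-4 by 2.92 (SE 0.38, adjusted p = 0.000182) and gh1-1 by 1.96 (SE 0.33, adjusted p = 0.000781). The other 3 were just outside the threshold, at -2.25 for cdh-1 (SE 0.84, adjusted p = 0.0523), -0.47 for cdh-2 (adjusted p = 0.0501) and -0.54 for gh3-3 (adjusted p = 0.0687). With RLE scaling or with DESeq2 all 6 were called lower, and with only the libraries compared 5 were, among them cdh-1 (-2.25, adjusted p = 1.31e-07). In Δclr-5, leucine lowered 4 of the 6, where 17.8% of all genes tested were called lower and 19.5% higher: gh3-6 fell by 4.64 (SE 0.68, adjusted p = 0.000513), cdh-1 fell by 4.52 (SE 0.93, adjusted p = 0.00368), gh3-4 by 3.84 (SE 0.40, adjusted p = 5.04e-05) and gh1-1 by 2.55 (SE 0.34, adjusted p = 0.000181). In this strain cdh-2 had a fold change of 0.46 (adjusted p = 0.0543) and gh3-3 of -0.29 (adjusted p = 0.321), the second turning to 0.05 without Δclr-5 culture 2 on Avicel. Without Δclr-5 culture 1 on Avicel, gh3-3 was called lower (-0.57, adjusted p = 0.0371) and cdh-2 higher (0.64, adjusted p = 0.0278). By library size alone, 33.7% of all calls in WT and 31.4% in Δclr-5 were decreases, against 46.9% and 47.8% with TMM.

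**Figure D3:**
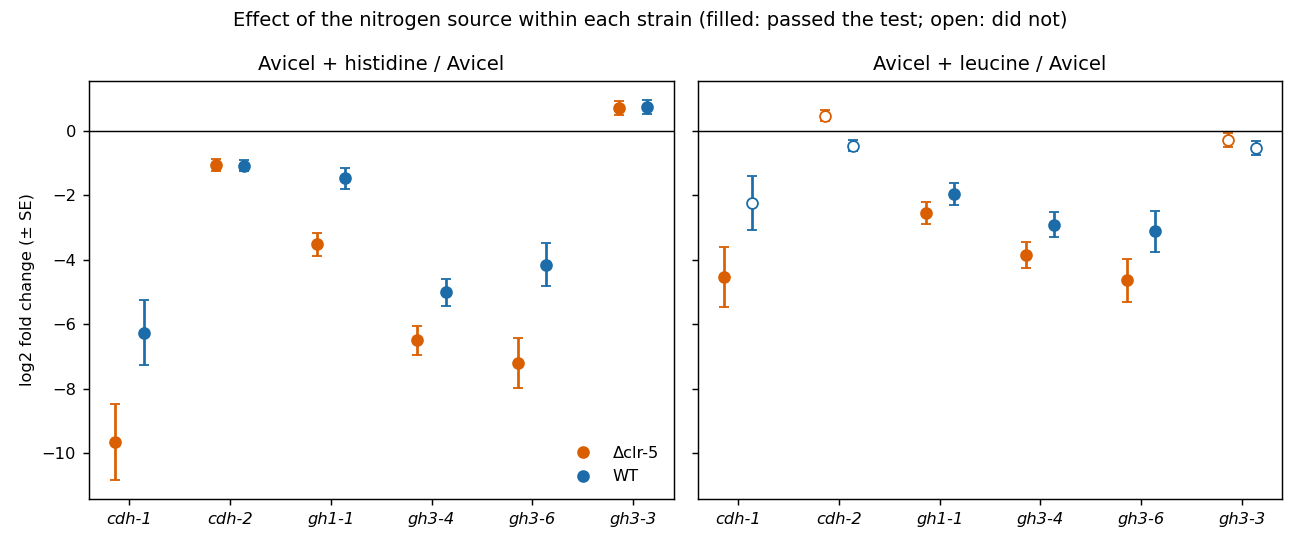
Log2 fold change (± SE) of histidine over Avicel (left) and of leucine over Avicel (right) for the 6 genes in Δclr-5 (orange) and WT (blue), filled where the test was passed. On histidine 5 genes lie below 0 in both strains and gh3-3 above; on leucine gh1-1, gh3-4 and gh3-6 are filled in both strains and cdh-1 in Δclr-5.

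The amino acids were also compared with each other. In WT, cdh-1 was lower on histidine than on leucine (-4.02, SE 0.91, adjusted p = 0.00423), and so were gh3-4 (-2.09, adjusted p = 0.000931) and cdh-2 (-0.61, adjusted p = 0.0131), while gh3-3 was higher (1.27, SE 0.23, adjusted p = 0.000723), with 26% of all genes called lower and 23.7% higher. The values of gh1-1 (0.48, adjusted p = 0.231) and gh3-6 (-1.03, adjusted p = 0.167) in WT turned on a single culture, since without WT culture 1 on histidine gh1-1 was at -0.04 and gh3-6 was called lower (-2.53, adjusted p = 0.00173), and without WT culture 2 gh1-1 was called higher (0.86, adjusted p = 0.0456). The size for cdh-1 also moved with these cultures, to -6.37 without WT culture 1 on histidine and -3.16 without WT culture 2, and cdh-1 was not called when only the libraries compared were fitted (adjusted p = 0.108). The call of cdh-2 was lost without WT culture 2 on histidine or either WT culture on leucine (adjusted p up to 0.1) and by library size alone (-0.22), where 30.5% of all calls were decreases against 52.4% with TMM. In Δclr-5, 5 of the 6 genes were lower on histidine than on leucine and gh3-3 was higher (1.00, SE 0.22, adjusted p = 0.0029), with 29.4% of all genes called lower and 23.6% higher. The fold changes were -5.13 for cdh-1 (adjusted p = 0.00139), -2.66 for gh3-4 (adjusted p = 0.000226), -2.56 for gh3-6 (adjusted p = 0.00614), -1.52 for cdh-2 (adjusted p = 3.64e-05) and -0.97 for gh1-1 (adjusted p = 0.0254). The call of gh1-1 was lost without Δclr-5 culture 1 on either amino acid (adjusted p = 0.184 and 0.147), and that of gh3-6 without Δclr-5 culture 1 on histidine (adjusted p = 0.0551).

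Because the genes moved by such different amounts, the make-up of the 6 transcripts changed from group to group. Together they took 0.168% and 0.205% of all counts in Δclr-5 on histidine, against 0.891% and 0.492% in WT, and 0.237% and 0.188% in Δclr-5 on leucine, against 0.679% and 0.722% in WT. On Avicel their share was 1.94% and 1.14% in Δclr-5, against 2.84% and 2.71% in WT. Per kilobase of gene span, gh3-3 made up 60.9% and 55.01% of the sum of the 6 in Δclr-5 on histidine, against 15.4% and 22.7% in WT on histidine and 2.34% and 1.96% in WT on Avicel. In WT on histidine, gh1-1 made up 76.2% and 74.3% of the sum, against 42.1% and 41.3% in WT on Avicel. The share of cdh-1 was 0.465% and 0.434% in Δclr-5 on histidine, against 3.77% and 0.743% in WT on histidine and 41.1% and 40.9% in WT on Avicel. The groups thus had different leading genes: gh3-3 in Δclr-5 on histidine, gh1-1 in WT on histidine and in both strains on leucine, and cdh-1 and gh1-1 at near equal shares in WT on Avicel. In Δclr-5 on Avicel, cdh-1 and gh1-1 had 38.7% and 38.0% in culture 1 and 23.8% and 49.1% in culture 2. These shares are a description of each library and were not tested.

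**Figure D4:**
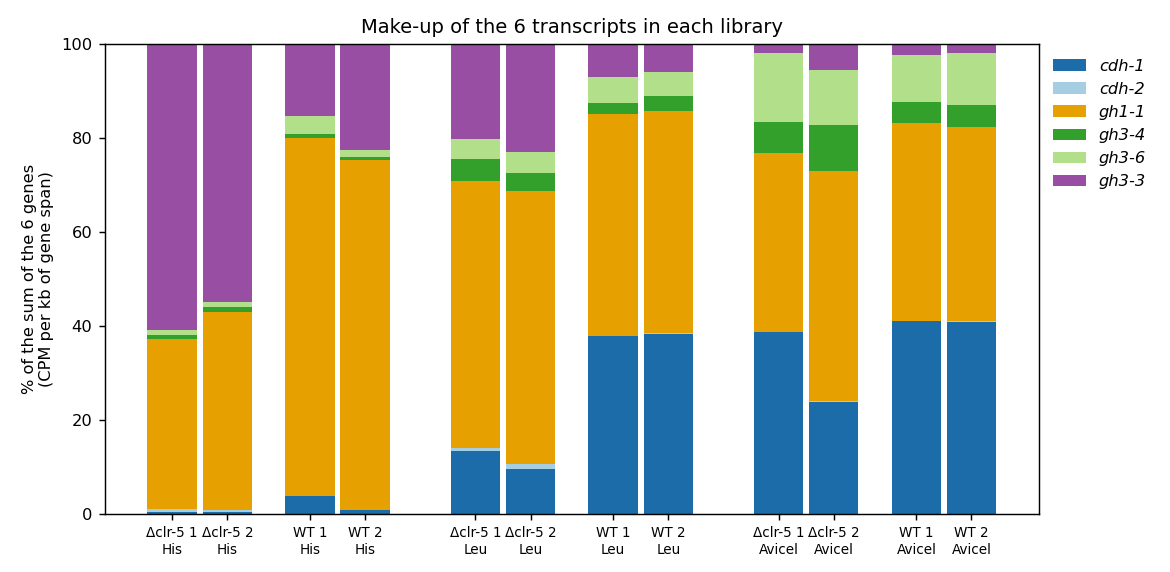
Share of each gene in the summed level of the 6 genes (CPM per kilobase of gene span, in %), 1 bar a library, with the 2 Δclr-5 cultures left of the 2 WT cultures in each medium. On histidine gh3-3 fills 60.9% and 55.01% of the Δclr-5 bars and gh1-1 76.2% and 74.3% of the WT bars, while cdh-1 takes 41.1% and 40.9% in WT on Avicel.

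The pathway around these enzymes was described with lists written from enzyme function with earlier results of these data known, so their counts are no independent support. They stand against 12.8% of all genes tested called lower in Δclr-5 and 8.27% higher on histidine, 10.7% lower and 8.77% higher on leucine, and 8.37% lower and 11.8% higher on Avicel. Of the 3 other GH3 β-glucosidase genes, gh3-1 (NCU03641), gh3-2 (NCU08054) and gh3-5 (NCU05577), 1 was lower in Δclr-5 on histidine, gh3-5 (-0.88, adjusted p = 0.00150), and 0 of 3 were called on leucine or on Avicel. With gh3-5 at 24.6 and 24.9 CPM in Δclr-5 on histidine, against 47.3 and 43.0 CPM in WT, its decrease was smaller than that of any of the 4 genes called above. All 4 cellulase genes of the list were lower in Δclr-5 on histidine, with a median of -5.31, and on leucine, with a median of -2.20, against a median over all genes tested of -0.03 and 0.03. On Avicel 0 of these 4 were called, at a median of -0.89. They were cbh-1 (NCU07340, a cellobiohydrolase), gh6-2 (NCU09680, a cellobiohydrolase), gh5-1 (NCU00762, an endoglucanase) and gh7-1 (NCU05057), of which gh6-2 fell furthest, with values of -6.02 on histidine and -3.24 on leucine.

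Of 14 LPMO genes, whose products take electrons from cellobiose dehydrogenase, 8 were lower in Δclr-5 on histidine and none higher, with a median of -2.996, and 9 were lower on leucine and none higher, with a median of -1.78. On histidine the furthest were gh61-4 (NCU01050), at -6.75, gh61-3 (NCU02916) at -5.92, gh61-5 (NCU08760) at -5.91 and gh61-7 (NCU00836) at -5.82. On leucine the furthest were NCU02344 at -4.64, gh61-4 at -3.47, gh61-7 at -3.08 and gh61-6 (NCU03328) at -2.91. On Avicel 1 of 14 was called, gh61-2 (NCU07760), which fell by 1.01, at a list median of -0.97. The list was not of one kind, as 5 of its genes passed no strain test, with values on histidine of 0.49 for gh61-8, 0.12 for gh61-10, 0.05 for gh61-11, 0.02 for gh61-9 and -0.15 for NCU07974.

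Of 7 genes for uptake and intracellular use of cellobiose, cellobionate and glucose, 5 were lower in Δclr-5 on histidine and none higher, at a median of -1.75, and 4 were lower on leucine and none higher, at a median of -0.81. On histidine the cellodextrin transporter gene cdt-1 (NCU00801) fell by 2.59, NCU05853 by 2.36, NCU09425 by 1.79 and NCU07143 by 1.75. The level of cdt-1 there was 985 and 1237 CPM in Δclr-5, against 7656 and 5691 CPM in WT, so that both mutant cultures were below both WT cultures, as for gh1-1, whose product acts on the imported sugar. On leucine NCU07143 fell by 1.71, NCU09425 by 1.07, NCU05853 by 0.87 and hgt-1 (NCU10021) by 0.78, and cdt-1 was not called (-0.81, adjusted p = 0.056). On Avicel hgt-1 was lower (-0.74) and NCU01633 higher (3.78), 1 of 7 in each direction, at a list median of -0.57, where 8.37% of all genes tested were called lower and 11.8% higher.

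Of 6 genes for regulators of cellulose use, 2 were lower on histidine, clr-2 (NCU08042), an activator of cellulase genes, which fell by 3.51, and vib-1 (NCU03725), by 0.93. On leucine 2 were lower, clr-1 (NCU07705), also an activator, by 1.26, and vib-1, by 0.90, and clr-2 was not called (-1.49, adjusted p = 0.056). On Avicel 1 was higher, cre-1 (NCU08807), the carbon catabolite repressor gene, by 1.36 on the log2 scale, and none was lower. The shares of all genes tested called lower were 12.8% on histidine and 10.7% on leucine, and 11.8% were called higher on Avicel, so that counts of 1 or 2 in a list of 6 say little about the list. Of the conidiation genes, eas was higher in Δclr-5 by 6.57 on histidine, 9.02 on leucine and 7.16 on Avicel. The value on leucine rests on WT levels near the floor, 0.49 and 0.71 CPM, against 251 and 506 CPM in Δclr-5. On histidine, eas was at 82991 and 69880 CPM in Δclr-5.

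**Figure D5:**
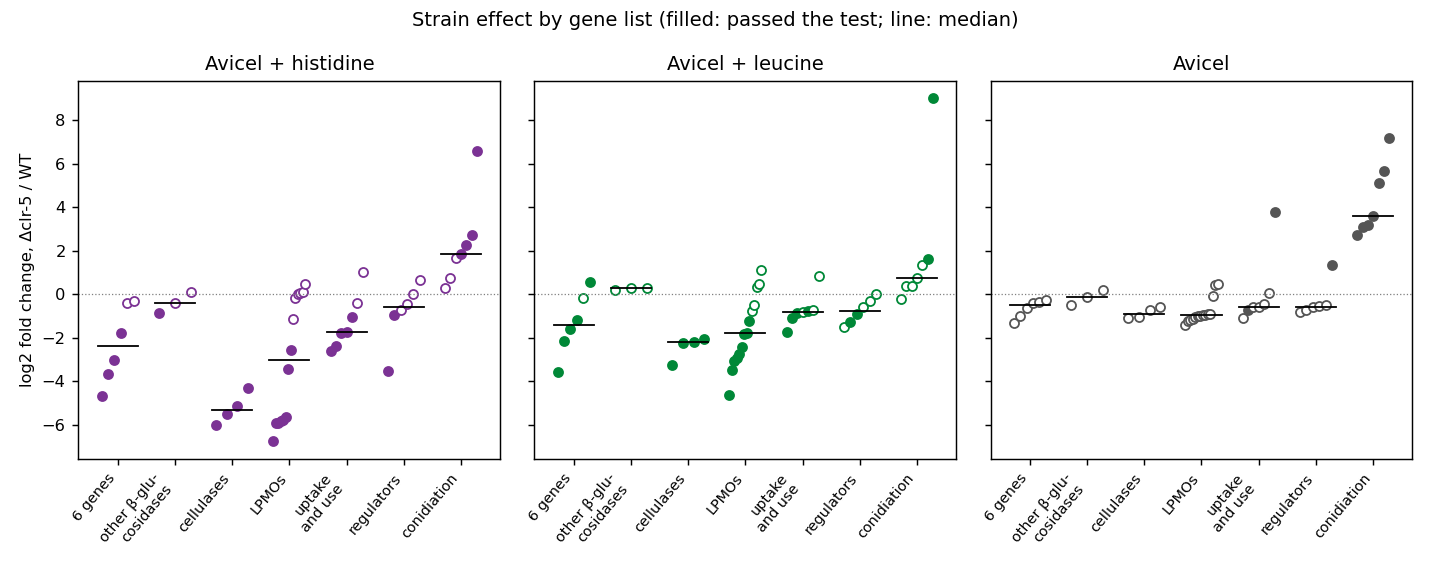
Log2 fold change of Δclr-5 over WT for every gene of each list on histidine, leucine and Avicel (1 panel each); filled points passed the test and black lines are list medians. The cellulase and LPMO medians are -5.31 and -2.996 on histidine and -2.20 and -1.78 on leucine, and the conidiation points lie mostly above 0.

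Across the 12 libraries, 4 of the members formed a group by their log2 CPM on TMM library sizes. Pearson's r was 0.97 for gh3-4 and gh3-6, 0.96 for cdh-1 and gh3-6, 0.95 for cdh-1 and gh3-4, and 0.94 for gh1-1 and gh3-6. The intracellular gh1-1 was less close to cdh-1 (0.86) and gh3-4 (0.84). The paralogues cdh-1 and cdh-2 had an r of 0.75, and gh3-3 had an r of -0.73 with cdh-2, -0.45 with cdh-1 and 0.03 with gh1-1. These are descriptions over 12 libraries that share strain and medium, with no test.

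Among the 6829 other genes of sufficient level, those most like each member over the 12 libraries were listed, with nothing implied of function. For cdh-1 they were NCU09764 (r = 0.993) and NCU02604 (r = 0.988), and for gh3-6 NCU09582 (r = 0.990) and NCU06607 (r = 0.989). For gh3-4 they were NCU01076 (r = 0.988) and NCU09689 (r = 0.985), and for gh1-1 gh35-2 (NCU04623, r = 0.980) and NCU06277 (r = 0.975). The genes most like cdh-2 were NCU09102 (r = 0.975) and NCU09170 (r = 0.966), and those most like gh3-3 were NCU02342 (r = 0.957) and NCU03338 (r = 0.955). No gene was among the nearest pair of more than 1 member. By Spearman's rho instead, NCU09764 and NCU09102 were again the closest of all to cdh-1 and cdh-2 (rank 1), whereas NCU02604 ranked 36 for cdh-1, NCU09582 ranked 132 for gh3-6, and NCU01076 and NCU09689 ranked 114 and 77 for gh3-4. The other 6 named genes ranked from 2 to 7.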

How the data were processed

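RNA from mycelium of 12 cultures was sequenced, and the authors deposited 1 table of raw read counts by gene. Per the labels, reads were aligned with TopHat2 2.0.8b and counted with HTSeq 0.13.5, and the study's methods state that reads mapping uniquely to 1 gene were counted on the OR74A genome. The strand setting is not given in the sources used here. Samples were grouped by strain and medium from their titles, and 9729 of 9730 loci matched the RefSeq table of NC12, which gave symbols and coordinates. That table holds no sequences, so the planned promoter motifs and protein features were not run.

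CPM are counts over the library total. The 8805 genes that passed filterByExpr were fitted with edgeR 4.0.16 (R 4.3.3; TMM, estimateDisp, robust glmQLFit) on all 12 libraries together (6 residual df, common BCV 0.174). Calls needed a log2 fold change of 0.5 or more in size and a Benjamini-Hochberg adjusted p under 0.05. Each SE is the absolute log2 fold change over the square root of F. The script was tested on simulated data. With 2 cultures a group, an exact permutation test cannot reach 0.05 and was not used. Alternatives were RLE or library size scaling, no filter, DESeq2 1.42.0, only the libraries compared, a replicate block, adjusted p alone, each library left out, CPM on TMM sizes, and Spearman correlation.

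Named genes are the 6 members, clr-5, up to 4 called genes per list by size, and the 2 genes with the highest Pearson correlation of log2 CPM with each member at a mean of at least 3. All correlations used log2 CPM on TMM library sizes (prior count 2). Other genes named, matA-1 and genes not called, were chosen after their values were seen. The members and lists were chosen with earlier results of these data known. Cultures of a group differed by more than counting noise (chi-square per gene from 14.4 to 211), so none was counted as a duplicate.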

Additional observations from a re-analysis of the deposited data

Results flagged for a closer look

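Differences of the strain effect between media passed the test for 3 results, and none of these 3 calls held under every alternative run. On the log2 scale, the effect of Δclr-5 over WT on histidine minus that on Avicel was -2.04 for gh1-1, from effects of -3.03 on histidine and -0.99 on Avicel, and -3.05 for gh3-6, from effects of -3.67 and -0.62. The effect on histidine minus that on leucine was -0.91 for cdh-2, from effects of -0.32 on histidine and 0.59 on leucine. The rise of cdh-2 on leucine rests on 394 and 401 counts in Δclr-5 against 211 and 189 counts in WT.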

How the results depend on the processing

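The directions and calls of gh1-1 on histidine, and of cdh-1, gh3-4, gh3-6, gh1-1 and cdh-2 for histidine over Avicel in both strains, held under every alternative run. With 2 cultures a group, leaving out 1 leaves a single culture that is assumed to vary like the other groups. The number of all genes called changed in these fits as well, so a call gained or lost there does not single out the 6 genes. The replicate numbers did not pair the samples (correlations of same-numbered deviations over 15 pairs of groups from -0.24 to 0.37, 2 of them over 0.1). With a replicate block, 1 gene was called lower in the difference of the strain effect between histidine and Avicel (2 without it), with 8.43% of all genes (9.03% without it). In that between histidine and leucine 0 were (1 without it), with 5.88% of all genes (6.54% without it). With the block, cdh-1 for leucine over Avicel in WT was called lower (-2.23, adjusted p = 0.0395).

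Numbers of the 6 genes called that moved by over 1.5 times were as follows, with the cause not tested. With DESeq2, 1 gene was lower on Avicel in Δclr-5 (0 before), with 9.32% of all genes called lower (8.37% before). For leucine over Avicel in WT, 6 were lower (3 before), with 20.4% of all genes (19.6% before). In the differences, 4 were lower in histidine minus Avicel, with 10.2% of all genes (9.03% before), and 2 in histidine minus leucine, with 7.31% (6.54% before). In leucine minus Avicel, 1 was higher (0 before), with 3.74% of all genes called higher (1.85% before). With RLE scaling, 6 were lower for leucine over Avicel in WT, with 21.9% of all genes, and 0 in the difference histidine minus leucine, with 5.97%. By library size alone, 2 were higher for histidine over leucine in WT (1 before), with 39.8% of all genes called higher (23.7% before). For leucine over Avicel in Δclr-5, 1 was higher (0 before), with 26.9% of all genes (19.5% before). In the difference histidine minus leucine, 2 were lower, with 11.2% of all genes. All-gene medians reached 0.63, for histidine over Avicel in WT (0.08 before). Decreases made up 80.7% of calls in the difference histidine minus Avicel (62.9% before) and 78.8% in histidine minus leucine (57.3% before). With only the libraries compared, 2 were lower on histidine in Δclr-5 (4 before), with 14% of all genes called lower (12.8% before). For leucine over Avicel in WT, 5 were lower, with 22.2% of all genes. For histidine over Avicel in Δclr-5, 0 were higher (1 before), with 21.8% of all genes called higher (27.2% before). In the differences, 0 were lower in histidine minus Avicel, with 5.15% of all genes, and 2 in histidine minus leucine, with 11.2%. With no filter, 1 was lower in the difference histidine minus Avicel, with 8.1% of all genes. Single calls also changed where the number moved less: gh3-4 on leucine was not called by library size or with only the libraries compared, nor cdh-1 for histidine over leucine in WT with only the libraries compared, nor cdh-2 there by library size, and gh3-4 was called in histidine minus Avicel by library size (-1.69, adjusted p = 0.0371).

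Leaving out 1 library at a time also moved the sizes. For Δclr-5 over WT on histidine, cdh-1 ran from -5.54 to -2.33, gh3-6 from -4.39 to -2.17, gh1-1 from -3.41 to -2.51 and gh3-4 from -2.22 to -1.09. On Avicel, cdh-1 ran from -2.26 to -0.72, gh3-6 from -1.31 to -0.14 and gh1-1 from -1.25 to -0.77. For histidine over Avicel, gh3-3 ran from 0.44 to 1.05 in Δclr-5 and from 0.57 to 0.88 in WT. In the difference histidine minus Avicel, gh1-1 ran from -2.42 to -1.52 and gh3-6 from -3.77 to -1.56. For cdh-2, histidine minus leucine ran from -1.04 to -0.77 and leucine minus Avicel from 0.77 to 1.10.

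Signs turned only for values that were not called. These were gh3-3 on leucine by library size (0.11), gh1-1 for histidine over leucine in WT without WT histidine culture 1 (-0.039, leave-one-out range to 0.86), gh3-3 for leucine over Avicel in Δclr-5 without Δclr-5 Avicel culture 2 (0.051, range from -0.57), and gh3-3 in leucine minus Avicel without Δclr-5 Avicel culture 1 (-0.027, range to 0.59). In histidine minus Avicel, cdh-2 turned by library size (-0.18) and without Δclr-5 Avicel culture 2 (-0.14), Δclr-5 histidine culture 2 (-0.0056) or WT histidine culture 2 (-0.11; range to 0.19), and gh3-3 with RLE (0.027), with DESeq2 (0.026) and without Δclr-5 Avicel culture 2 (0.32), WT Avicel culture 2 (0.13), Δclr-5 histidine culture 1 (0.072) or WT histidine culture 1 (0.14; range from -0.29). In histidine minus leucine, cdh-1 (1.24, range from -1.97) and gh3-4 (0.10, range from -1.02) turned without WT histidine culture 1. On TMM library sizes, 19 of 36 group means of CPM moved by more than their SD.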

Other observations

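The β-glucosidase genes kept no fixed ratio to each other. The count ratio of gh1-1 to gh3-4 was 34.3 and 41.6 in Δclr-5 on histidine against 87.6 and 102 in WT, 10.6 and 14.005 in Δclr-5 on leucine against 18.6 and 13.4 in WT, and 5.14 and 4.48 in Δclr-5 on Avicel against 8.33 and 7.67 in WT. In each strain, then, the ratio of the intracellular to the secreted enzyme's transcript was highest on histidine and lowest on Avicel. The count ratio of gh3-6 to gh3-4 varied less, at 1.03 and 1.22 in Δclr-5 on histidine against 5.11 and 2.40 in WT, 0.930 and 1.28 in Δclr-5 on leucine against 2.56 and 1.70 in WT, and 2.33 and 1.26 in Δclr-5 on Avicel against 2.31 and 2.38 in WT.

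Among the 6 genes, the largest ratio between the cultures of a group was that of cdh-1 in WT on histidine, at 499 CPM in culture 1 and 53.8 CPM in culture 2, where gh3-6 (359 and 77.1 CPM), gh3-4 (70.3 and 32.2 CPM) and gh1-1 (6160.3 and 3287 CPM) were also higher in culture 1, while cdt-1 (7656 and 5691 CPM) and gh3-3 (1812 and 1458 CPM) differed less.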
